A study of Mus musculus with 12 samples.

Results

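The BCL2 family sets whether a cell keeps or loses its mitochondrial barrier, and 10 of its members were followed here in sorted cells of the mouse fetal ovary: the antiapoptotic genes Bcl2, Bcl2l1 and Mcl1, the effectors Bax and Bak1, and the BH3-only genes Bid, Bad, Bcl2l11, Bbc3 and Pmaip1. The members were taken by gene symbol from the deposited table of gene counts. All 10 were found among the 54532 genes listed, each with at least 1 count. Poly(A) RNA was sequenced from E15.5 ovaries of mice carrying the Tg(Pou5f1-EGFP)2Mnn reporter, with GFP-positive cells collected as germ cells and GFP-negative cells as somatic cells. Pregnant dams had received dexamethasone (dex, a synthetic glucocorticoid) at 10 μg per g of body weight, or an equal volume of saline, injected intraperitoneally once a day from E12.5 until the day of collection. This gave 4 groups of 3 libraries: germ cells after saline, germ cells after dex, somatic cells after saline and somatic cells after dex. Every group carried the same transgene, and every library came from female embryos.

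Several features of the model bear on an apoptosis gene family. Each library pooled cells from more than 1 dosed litter, so the 3 replicates of a group measure the spread between pools and not between embryos. Dead cells were gated out with a viability dye during sorting, so the values describe cells that were alive at collection. The germ cells are defined by activity of the Pou5f1 reporter, and the somatic cells are whatever lacked it: pregranulosa, stromal, endothelial, perivascular, blood and immune cells together. In such bulk samples, fewer cells of a type and less RNA per cell cannot be told apart.

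BCL2 proteins act at the outer mitochondrial membrane. Antiapoptotic members hold the effectors BAX and BAK in check, BH3-only members sense damage or growth factor loss and release or activate the effectors, and the effectors then form pores that let cytochrome c out and start the caspase cascade. In the fetal ovary, where a large share of germ cells is lost before birth, this balance has been studied as a control point of germ cell number, and glucocorticoids are known to kill or protect cells through the same proteins depending on the cell type.

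Libraries held between 14658503 and 18245507 assigned counts, so that 3 counts corresponded to 0.169 to 0.201 CPM (counts scaled to a common library total by edgeR's effective library sizes). All 6 germ cell markers were higher in germ cells in saline (edgeR quasi-likelihood, Benjamini-Hochberg adjusted p of at most 0.05, the call rule used throughout). Pou5f1 lay between 14.2 and 25.8 CPM in germ cells in saline and did not exceed 0.121 CPM in somatic cells in saline. Per1, a known glucocorticoid target, rose after dex in both cell types, by 1.91 on the log2 scale in germ cells and by 1.68 in somatic cells. Fkbp5, another such target, rose by 1.29 in somatic cells, whereas its germ cell difference of 0.33 was not called (edgeR adjusted p = 0.162, but 0.00716 with no low-count filter).

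The promoter of Bcl2 is shown because Bcl2 was the single member called after dex, and that of Bcl2l11 because it was a BH3-only gene that was not called. Bcl2l11 was at 9.27 FPKM against 8.90 for Bcl2 in somatic cells after dex, but at 9.31 against 4.90 after saline. Both promoters are the 250 bases upstream of a RefSeq transcription start in GRCm38.p6. They are written 5′ to 3′ on the gene's strand with CpG dinucleotides in capitals. Bcl2l11 has another such window, which is not shown. The Bcl2 window is chr1:106714291-106714540 on the minus strand and the Bcl2l11 window is chr2:128125788-128126037 on the plus strand.
Bcl2: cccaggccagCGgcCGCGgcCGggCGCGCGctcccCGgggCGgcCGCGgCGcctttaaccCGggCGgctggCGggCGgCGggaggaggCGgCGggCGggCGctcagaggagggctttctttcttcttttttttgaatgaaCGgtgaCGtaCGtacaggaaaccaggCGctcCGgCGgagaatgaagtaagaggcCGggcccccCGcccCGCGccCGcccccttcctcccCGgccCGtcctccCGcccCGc
Bcl2l11: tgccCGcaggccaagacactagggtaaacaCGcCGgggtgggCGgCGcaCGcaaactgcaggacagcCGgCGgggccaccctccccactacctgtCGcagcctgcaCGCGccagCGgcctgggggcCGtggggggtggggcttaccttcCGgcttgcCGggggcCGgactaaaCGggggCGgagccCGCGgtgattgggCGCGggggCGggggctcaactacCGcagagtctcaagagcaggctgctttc
The Bcl2 window held 36 CpG dinucleotides at 74.8% GC and the Bcl2l11 window held 24 at 72.0% GC, against a median of 6 CpG and 52.4% GC over all 32851 windows of this length. The glucocorticoid receptor motif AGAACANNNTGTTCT, searched on both strands, was in 3 of all windows (0.009%), and its left part AGAACA, which the full motif contains, was in 16.085%. Neither was found in the 15 windows that matched 9 of the members. This says only that these letters are not in these windows.

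The first question was whether repeated prenatal dex altered the family in somatic cells. Bcl2, which encodes the founding antiapoptotic protein, was the single member that passed the test, and it rose 1.82-fold. No effector and no BH3-only gene was called in either direction. Of the 10 members, 1 was called, against 8.18% of the 16556 genes tested in somatic cells (4.81% were called higher). The median log2 fold change of the members was -0.01, and that of all genes was 0.00.

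Bcl2 lies on chromosome 1 at 106538178 to 106714274, minus strand, in the deposited table (mm10). It was at 45.6, 51.8 and 41.2 CPM in the somatic saline libraries and at 83.0, 83.1 and 86.8 CPM in the somatic dex libraries (46.2 ± 5.35 and 84.3 ± 2.16, mean ± SD, n = 3). Every dex library was above every saline library, and the dex libraries were the more closely spaced. The log2 fold change was 0.86 with an SE of 0.08 and a 95% interval of 0.68 to 1.05 (edgeR adjusted p = 2.24e-05). Leaving out each library in turn gave log2 values between 0.78 and 0.96, all called.

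On the deposited FPKM scale, which divides by gene length and library depth and so allows levels of different genes to be compared, Bcl2 went from 4.90 ± 0.56 to 8.90 ± 0.16 FPKM in somatic cells (SD, n = 3). Its share of the summed antiapoptotic FPKM moved from between 5.03% and 6.22% in saline to between 9.37% and 9.71% in dex. Mcl1 still made up most of that sum, with 76.7% on average after dex. After dex, Bcl2 stood next to Bcl2l11 in somatic cells, at 8.90 against 9.27 FPKM.

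Bcl2l1, which encodes BCL-XL, was at 52.4, 50.4 and 57.0 CPM in saline and 61.4, 56.2 and 66.1 CPM in dex in somatic cells. The groups overlapped, and the log2 difference of 0.20 (95% interval 0.02 to 0.37) was not called (edgeR adjusted p = 0.172). Mcl1, a short-lived antiapoptotic protein's gene, was at 243 to 254 CPM in saline and 252 to 258 CPM in dex. Its interval of -0.10 to 0.16 on the log2 scale was the narrowest of the 10 members in somatic cells.

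The effectors were not called in somatic cells. Bax was at 28.7, 30.5 and 35.9 CPM in saline and at 29.8, 29.7 and 30.8 CPM in dex, with a 95% interval of the log2 difference from -0.30 to 0.14. Bak1 was at 36.2, 37.2 and 39.9 CPM in saline and 37.9, 36.0 and 36.6 CPM in dex, with an interval from -0.22 to 0.14. Saline and dex libraries overlapped for both genes.

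Among the BH3-only genes, Bcl2l11, which encodes BIM, a mediator of glucocorticoid-induced death of lymphocytes, was at 77.2, 82.5 and 71.3 CPM in saline and at 76.2, 74.9 and 79.8 CPM in dex. The means were 77.0 CPM in both groups, with a 95% interval of the log2 difference from -0.16 to 0.15. Bad, whose protein is held inactive by survival kinases, had an interval from -0.24 to 0.22. Bid, cut by caspase 8 to link death receptors to mitochondria, had a wider one, from -0.50 to 0.52, at 4.53 to 8.15 CPM over the 6 libraries.

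The p53 targets Bbc3 (PUMA) and Pmaip1 (NOXA) were low in somatic cells. Bbc3 was at 6.23 to 7.80 CPM in saline and 5.11 to 7.49 CPM in dex, with an interval from -0.59 to 0.26. Pmaip1 was at 4.28, 4.71 and 4.31 CPM in saline and at 3.93, 3.32 and 4.04 CPM in dex. The Pmaip1 groups did not overlap, yet the log2 difference of -0.24 (interval -0.72 to 0.24) was not called (edgeR adjusted p = 0.608). Bcl2 and Pmaip1 were thus 2 of 10 members without overlap, against 25.4% of all genes tested.

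Other cell type markers moved in the same somatic libraries. All 10 macrophage markers had lower estimates after dex, 4 of them called, and their summed level was 161 to 214 CPM in saline and 49.0 to 120 CPM in dex, with no marker at 0. The 6 germ cell markers summed to 6.16 to 11.4 CPM in saline and 17.5 to 27.3 CPM in dex. All 5 tested had higher estimates, but Dazl alone was called. Dazl was at 0.971 to 1.35 CPM in saline and 12.6 to 12.9 CPM in dex. Ddx4, Mael, Sycp1 and Sycp3 overlapped between saline and dex, and Pou5f1 was at 0 in all 3 dex libraries. The summed pregranulosa markers (1430 to 1507 CPM, then 1183 to 1482), stromal markers (20770 to 23230, then 19650 to 25650) and erythroid markers (7408 to 12480, then 3332 to 16540) overlapped between saline and dex. So did the perivascular (792 to 813 CPM, then 761 to 953) and endothelial markers (286 to 329 CPM, then 264 to 291). Single markers in these lists were nevertheless called: Cspg4 (perivascular) rose by 1.06 on the log2 scale, Hba-x (erythroid) by 1.08, Pdgfra (stromal) by 0.62 and Emcn (endothelial) by 0.43, while Cdh5 (endothelial) fell by 0.50 and Wnt4 (pregranulosa) fell by 0.24. Of 11 pregranulosa markers, 10 had lower estimates. The part of these cells in the Bcl2 difference was not tested.

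**Figure D1:**
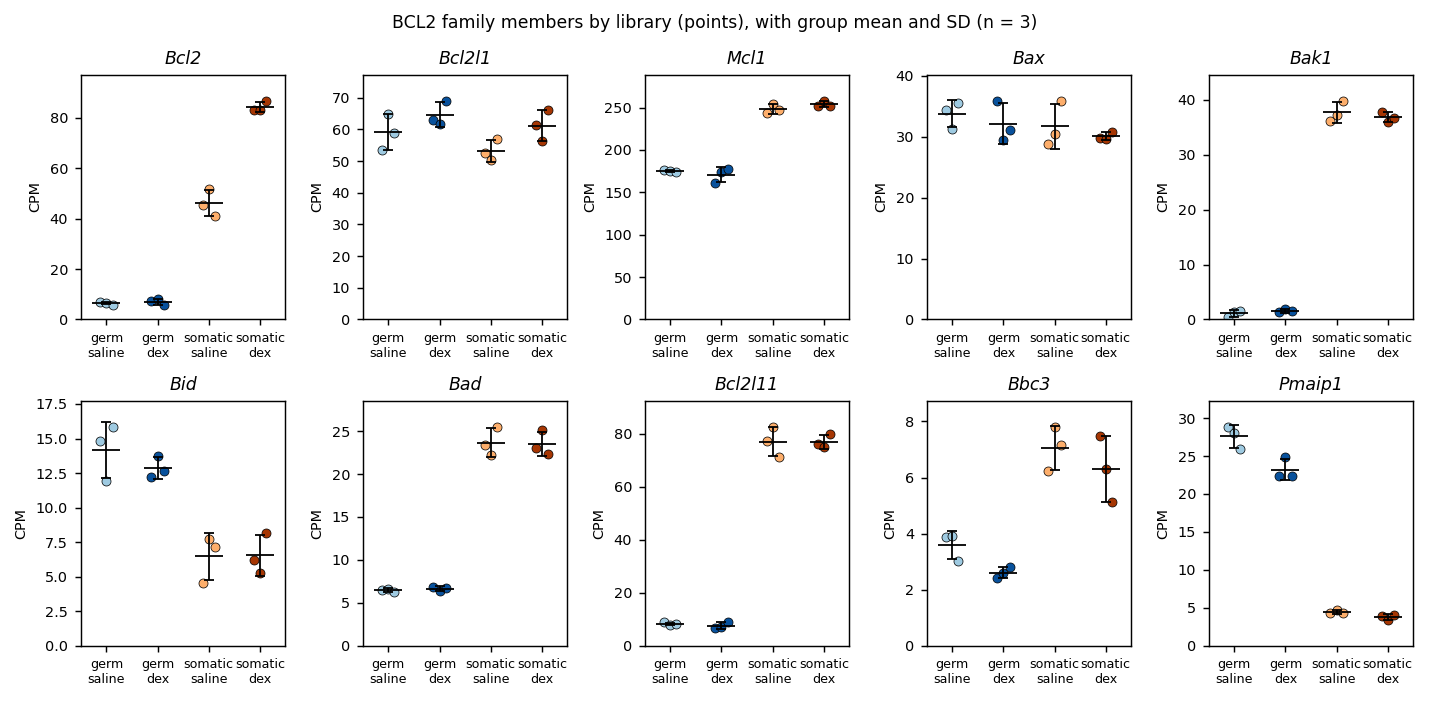
CPM of each member in every library (points), with the group mean and SD as bars (n = 3), on linear axes starting at 0 that differ between panels. Bcl2 in somatic cells is at 41.2 to 51.8 CPM after saline and 83.0 to 86.8 CPM after dex, and Bak1 in germ cells stays at or below 1.87 CPM.

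In germ cells, which carry abundant receptor transcript (Nr3c1, 158.7 CPM in saline against 84.3 in somatic cells), no member passed the test. Of the 10 members, 0 were called by edgeR and 0 by DESeq2, against 0.208% of 16857 genes tested by edgeR. An unadjusted p of at most 0.05 was reached by 1 of 10 members, Pmaip1, against 11.6% of all genes, a share near the background. The members' median log2 fold change was -0.04, and that of all genes was 0.01.

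Pmaip1 was at 28.8, 28.0 and 25.9 CPM in germ cells after saline and at 22.4, 24.8 and 22.4 CPM after dex. All dex libraries lay below all saline libraries, but the log2 difference of -0.24 (95% interval -0.47 to -0.01) did not survive adjustment (edgeR adjusted p = 0.394). Bbc3 was at 3.88, 3.91 and 3.03 CPM after saline and 2.41, 2.59 and 2.80 CPM after dex, from 36 to 67 counts per library. It too did not overlap, with a log2 difference of -0.46 and an interval from -0.98 to 0.06 (edgeR adjusted p = 0.496). These were the only 2 of 10 members without overlap, against 17.4% of all genes.

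The remaining BH3-only genes overlapped between germ cell groups. Bid was at 11.9 to 15.8 CPM after saline and 12.2 to 13.8 CPM after dex, with an interval of the log2 difference from -0.46 to 0.20. Bad was at 6.23 to 6.64 and 6.34 to 6.90 CPM, with an interval from -0.32 to 0.42. Bcl2l11 was at 7.99 to 8.79 CPM and then 6.50, 6.98 and 9.09 CPM, with an interval from -0.52 to 0.27.

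The antiapoptotic genes overlapped as well. Bcl2 was at 6.78, 6.47 and 5.89 CPM in germ cells after saline and at 7.17, 7.95 and 5.60 CPM after dex, a log2 difference of 0.12 with an interval from -0.30 to 0.54. Bcl2l1 had a difference of 0.13 (interval -0.05 to 0.32) and Mcl1 one of -0.03 (interval -0.16 to 0.11). A change in germ cells as large as the somatic rise of Bcl2, 0.86, lay outside the germ cell interval of Bcl2.

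Of the effectors, Bax was at 34.4, 31.3 and 35.6 CPM after saline and 35.9, 29.5 and 31.1 CPM after dex (interval -0.28 to 0.16). Bak1 was near the detection limit, with 6 to 28 counts after saline and 19 to 29 after dex. Its log2 difference of 0.46 had an interval from -0.55 to 1.47, so that even a doubling was not resolved at this depth.

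**Figure D2:**
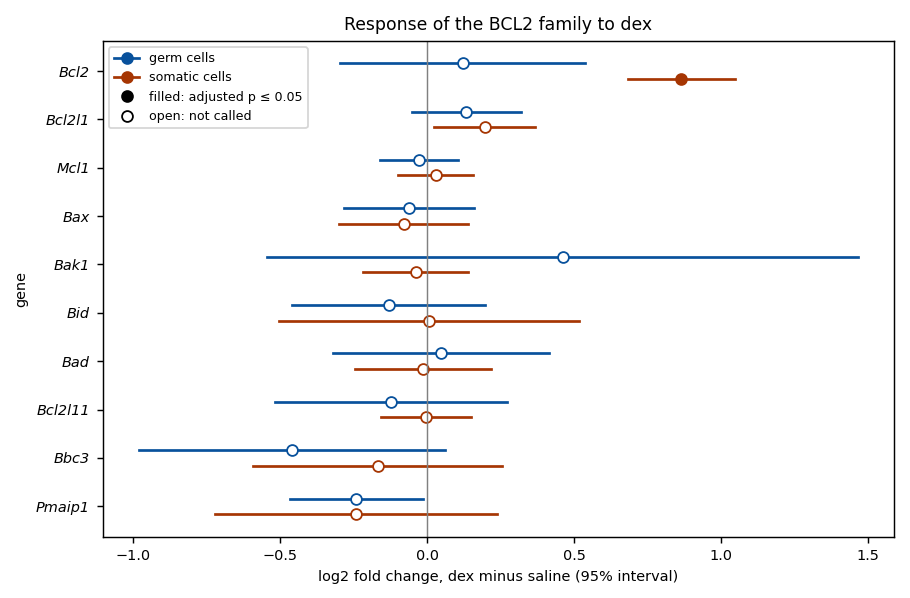
Log2 fold change after dex with its 95% interval for each member in germ cells (blue) and somatic cells (orange), filled where the edgeR adjusted p was at most 0.05. The somatic value of Bcl2, 0.86, is the single filled point, and the Bak1 interval in germ cells is the widest.

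The difference of the dex effects between cell types was then tested directly, as an interaction over all 12 libraries. Bcl2 was the single member called, against 1.62% of 19390 genes tested. Its dex effect was lower in germ than in somatic cells by -0.76 on the log2 scale (SE 0.18, 95% interval -1.13 to -0.38, edgeR adjusted p = 0.0398). The estimate was negative under every alternative, but the call was lost under 10 of 16 alternatives. Omitting 1 of 9 libraries ended it (each of the 3 somatic dex, somatic saline 1 and 3, germ dex 3 and each of the 3 germ saline), with adjusted p between 0.0695 and 0.115 there and estimates between -0.62 and -0.80. It remained without somatic saline 2, germ dex 1 or germ dex 2. The other alternative that ended the call was a replicate block, which joined germ and somatic libraries of the same number and treatment. For the other 9 members the interval of the difference included 0, from Mcl1 with -0.25 to 0.11 up to Bak1 with -0.28 to 1.23. This test uses the same libraries as the separate germ and somatic comparisons.

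Cell type divided the family far more than dex did. In saline, 8 of 10 members differed between germ and somatic cells, but 86.1% of 17941 genes tested did so too, and a share of this size is near the background. Pmaip1 and Bid were higher in germ cells (2 members, against 43.1% of genes), and Bak1, Bcl2l11, Bcl2, Bad, Bbc3 and Mcl1 were lower (6 members, against 42.9%). The members' median log2 difference, germ minus somatic, was -0.73, and that of all genes was 0.00. Bak1 passed the count filter here only through the somatic libraries, so its direction within the 6 lower members and the members' median was set in advance. These comparisons reuse the saline or dex libraries of the treatment comparisons.

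Among effectors, Bak1 and Bax took different courses. Bak1 (chromosome 17, 27019810 to 27029009, minus strand) was at 0.388, 1.34 and 1.60 CPM in germ cells and 36.2, 37.2 and 39.9 CPM in somatic cells in saline. The groups lay far apart, and the log2 difference was -5.04 with an SE of 0.24 (edgeR adjusted p = 3.69e-11). With 6 counts in germ saline 1, Bak1 passed the count filter in saline only through the somatic libraries. The direction of this difference was thus set in advance. After dex the germ cell libraries passed the filter as well, and the difference was -4.60. Bax was at 31.3 to 35.6 CPM in germ cells and 28.7 to 35.9 CPM in somatic cells, with a difference of 0.10 and an interval from -0.13 to 0.33. Per length, the ratio of Bax to Bak1 FPKM was 34.0 to 135 in germ cells in saline and 1.21 to 1.38 in somatic cells.

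Somatic markers were also found in the germ cell libraries. Bak1 in germ cells was 2.94% of its somatic level in saline. In germ cells in saline, the pregranulosa markers stood at a median of 7.76% of their somatic levels (range 1.77% to 15.96%). The endothelial median was 8.71% (range 1.62% to 221.6%). Medians were 4.68% for macrophage, 0.902% for perivascular, 0.619% for stromal and 0.379% for erythroid cells. Of the 6 endothelial markers, Tek alone was higher in germ cells, at 24.5 to 34.3 CPM over the 6 germ cell libraries. Over the 6 germ cell libraries the summed levels were 37.2 to 131 CPM for pregranulosa, 120 to 254.5 for stromal, 45.03 to 59.2 for endothelial, 9.97 to 48.7 for erythroid, 7.88 to 12.6 for perivascular and 6.27 to 16.8 for macrophage markers. The part of somatic RNA in the germ cell levels of the members was not tested, nor was its part in the dex comparisons of Bcl2.

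Of the antiapoptotic genes, Bcl2 was at 5.89 to 6.78 CPM in germ and 41.2 to 51.8 CPM in somatic cells in saline, a log2 difference of -2.85 (SE 0.13, edgeR adjusted p = 2.01e-11). After dex the difference was -3.63, and Bcl2 in germ cells went from 13.8% to 8.19% of the somatic level. Mcl1 was at 173 to 176 CPM in germ and 243 to 254 CPM in somatic cells, a smaller difference of -0.49 (SE 0.07, edgeR adjusted p = 5.04e-06). Bcl2l1 overlapped between the cell types, at 53.6 to 64.8 and 50.4 to 57.0 CPM, and its difference of 0.16 (interval -0.03 to 0.35) was not called (edgeR adjusted p = 0.0988). It was called without germ saline 1 (0.23, adjusted p = 0.0185) and with another scaling of the libraries (0.20, adjusted p = 0.0478).

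All 5 BH3-only genes differed between cell types, in both directions. Pmaip1 (chromosome 18, 66458604 to 66465550, plus strand) was at 28.8, 28.0 and 25.9 CPM in germ cells and 4.28, 4.71 and 4.31 CPM in somatic cells in saline. It was 6.26-fold higher in germ cells, with a log2 difference of 2.65 (SE 0.14, edgeR adjusted p = 1.10e-10). Bid was at 14.8, 11.9 and 15.8 CPM in germ cells and 4.53, 7.74 and 7.16 CPM in somatic cells, with a difference of 1.14 (SE 0.20, edgeR adjusted p = 1.01e-04).

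Bcl2l11 (chromosome 2, 128126038 to 128162547, plus strand) went the other way, with 7.99 to 8.79 CPM in germ and 71.3 to 82.5 CPM in somatic cells and a difference of -3.21 (SE 0.10, edgeR adjusted p = 3.23e-13). Bad was at 6.23 to 6.64 and 22.2 to 25.5 CPM (-1.86, SE 0.14), and Bbc3 at 3.03 to 3.91 and 6.23 to 7.80 CPM (-0.96, SE 0.21). None of the 5 BH3-only genes overlapped between cell types in saline. In all, 8 of 10 members did not overlap, against 87.1% of genes tested.

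After dex the same 8 members differed in the same directions, against 84.3% of 18171 genes tested. The log2 differences were -4.60 for Bak1, -3.36 for Bcl2l11, -1.84 for Bad, -1.29 for Bbc3, -0.59 for Mcl1, 0.96 for Bid and 2.61 for Pmaip1. Bax (0.08, interval -0.15 to 0.30) and Bcl2l1 (0.06, interval -0.13 to 0.25) were again not called. Of these differences, that of Bcl2 moved furthest from its saline value, by the interaction given above.

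**Figure D3:**
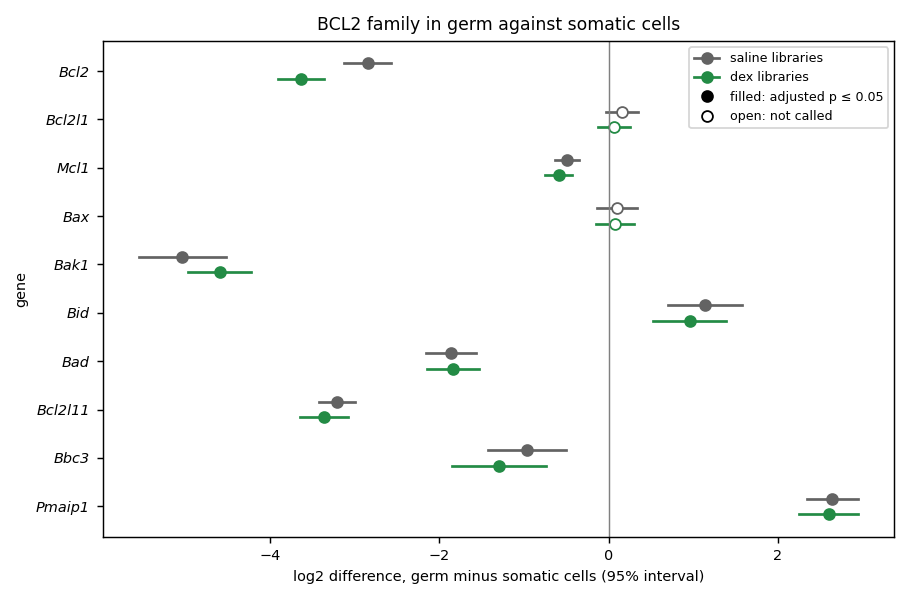
Log2 difference, germ minus somatic cells, with its 95% interval for each member in the saline libraries (grey) and the dex libraries (green), filled where the edgeR adjusted p was at most 0.05. Bak1 lies lowest at -5.04 in saline, Pmaip1 highest at 2.65, and Bax and Bcl2l1 are open. The direction of Bak1 in saline was set in advance by the count filter.

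Per length, Mcl1 headed the family in every group, at 51.7 ± 0.17 FPKM in germ cells and 70.5 ± 1.39 in somatic cells in saline (SD, n = 3). Bax came next in every group, at 21.7 and 19.5 FPKM. Below these, the order differed by cell type. In germ cells in saline, Bcl2l1 (13.0 FPKM), Pmaip1 (10.5), Bid (4.04), Bad (3.25), Bbc3 (1.71), Bcl2l11 (1.04), Bcl2 (0.704) and Bak1 (0.466) followed, and only the last pair overlapped. In somatic cells in saline, Bak1 (15.2 FPKM), Bad (11.5), Bcl2l1 (11.3), Bcl2l11 (9.31), Bcl2 (4.90), Bbc3 (3.23), Bid (1.77) and Pmaip1 (1.62) followed, with overlap between Bad and Bcl2l1 and between Bid and Pmaip1.

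The order was the same after dex in germ cells. In germ cells after dex, Bid and Bad overlapped, as did each neighbouring pair from Bbc3 through Bcl2l11 and Bcl2 to Bak1. In somatic cells the order after dex differed in 1 place, with Bcl2l1 (12.9 FPKM) above Bad (11.3 FPKM) in overlapping libraries. The 10 members summed to 107 to 109 FPKM in germ and 144 to 153 FPKM in somatic cells in saline, and to 99.99 to 107 and 153 to 154 FPKM after dex.

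By role, the antiapoptotic genes held 60.5 ± 1.32% of the family's summed FPKM in germ cells and 58.3 ± 1.27% in somatic cells in saline, and 62.5 ± 1.92% and 61.0 ± 0.29% after dex (SD, n = 3). The BH3-only genes held 19.0% and 18.4% in saline. In FPKM the BH3-only sum was 20.6 in germ and 27.4 in somatic cells, without overlap. Its content differed by cell type: Pmaip1 made up 51.2% of the BH3-only FPKM in germ cells and 5.93% in somatic cells, and Bcl2l11 made up 5.05% and 34.0%. Bak1 was 0.431% of the family sum in germ and 10.2% in somatic cells. Shares of transcript are not shares of protein.

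**Figure D4:**
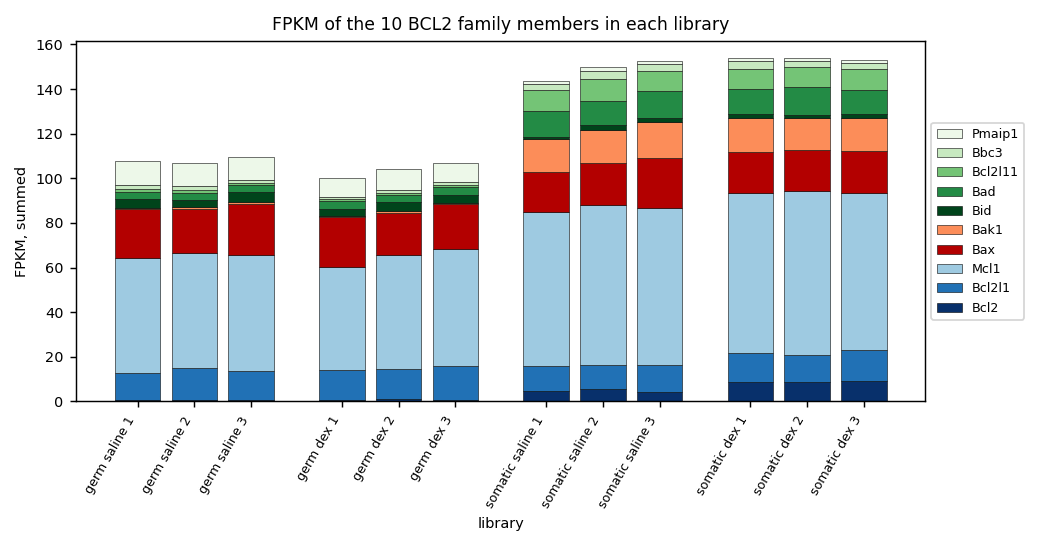
FPKM of the 10 members stacked for each library, antiapoptotic genes in blue, effectors in red and orange, BH3-only genes in green. Mcl1 forms the largest block in every library, Bak1 is hardly visible in germ cells (0.466 FPKM in saline), and the Bcl2 block is larger in the somatic dex libraries (8.90 FPKM) than in the somatic saline libraries (4.90 FPKM).

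Some members share exonic bases with other genes, and whether strand was used in counting is not given in the sources used here. Bcl2 shares 558 bases, 6.09% of its exons, with the antisense gene D630008O14Rik, which was at or below 0.238 CPM in every library. Bak1 shares the most, 25.5% of its exonic bases (614), with the antisense gene Ggnbp1. Ggnbp1 was at 3.30 to 5.83 CPM in germ cells, above the Bak1 level of 0.388 to 1.87 CPM there. Bad shares 20.5% with antisense Gpr137 and Bid shares 17.7% with antisense Bcl2l13, so the values of Bak1, Bad and Bid are the less certain. Bax shares 192 bases on its own strand with Gm45808, which was at 0 counts in all libraries. Bcl2l1, Mcl1, Bcl2l11, Bbc3 and Pmaip1 overlap no other gene's exons.

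The other genes of the apoptosis machinery were counted from lists in the same way. In germ cells, where 0.208% of all genes tested were called and 11.6% had an unadjusted p of at most 0.05, none was called among 8 further BCL2 relatives, 4 mitochondrial partners, 17 caspases, apoptosome and inhibitor genes, 8 death receptor genes and 10 regulators by edgeR, with 1, 1, 2, 0 and 1 at an unadjusted p of at most 0.05. In somatic cells, where 8.18% of all genes were called and 20.9% had such an unadjusted p, none of 4 partners, 17 caspase genes and 9 death receptor genes was called, with 0, 0 and 2 at that unadjusted p. The calls were 1 of 8 BCL2 relatives and 2 of 8 regulators, against the same 8.18%.

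E2f1, a cell cycle factor that can induce BH3-only genes, was at 41.2, 44.2 and 45.7 CPM in somatic cells after saline and 88.9, 73.9 and 77.0 CPM after dex, a rise of 0.87 (edgeR adjusted p = 1.60e-05). Foxo3, a transcription factor upstream of Bcl2l11 and Bbc3, was at 160, 147 and 141 CPM and then 219.9, 217.6 and 219.9 CPM, a rise of 0.55 (edgeR adjusted p = 1.01e-04). Their dex effects were lower in germ than in somatic cells, by -0.81 and -0.80 (edgeR adjusted p = 0.00376 and 0.00276). Bcl2l11 and Bbc3 themselves were not called in either cell type, as given above.

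Bnip3, a BCL2 relative of mitochondrial autophagy, was at 17.5, 19.1 and 19.7 CPM after saline and 24.0, 28.6 and 26.4 CPM after dex in somatic cells, a rise of 0.48 (edgeR adjusted p = 0.0176). That call was lost without somatic dex 2, somatic saline 1 or somatic saline 2 (adjusted p = 0.0885, 0.0862 and 0.0626). Of 15 further BCL2 relatives listed, 6 were tested in no comparison because of low counts (Bcl2a1a, Bcl2a1b, Bcl2a1d, Bcl2l10, Bcl2l14 and Bcl2l15), with at most 10 counts in any library.

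**Figure D5:**
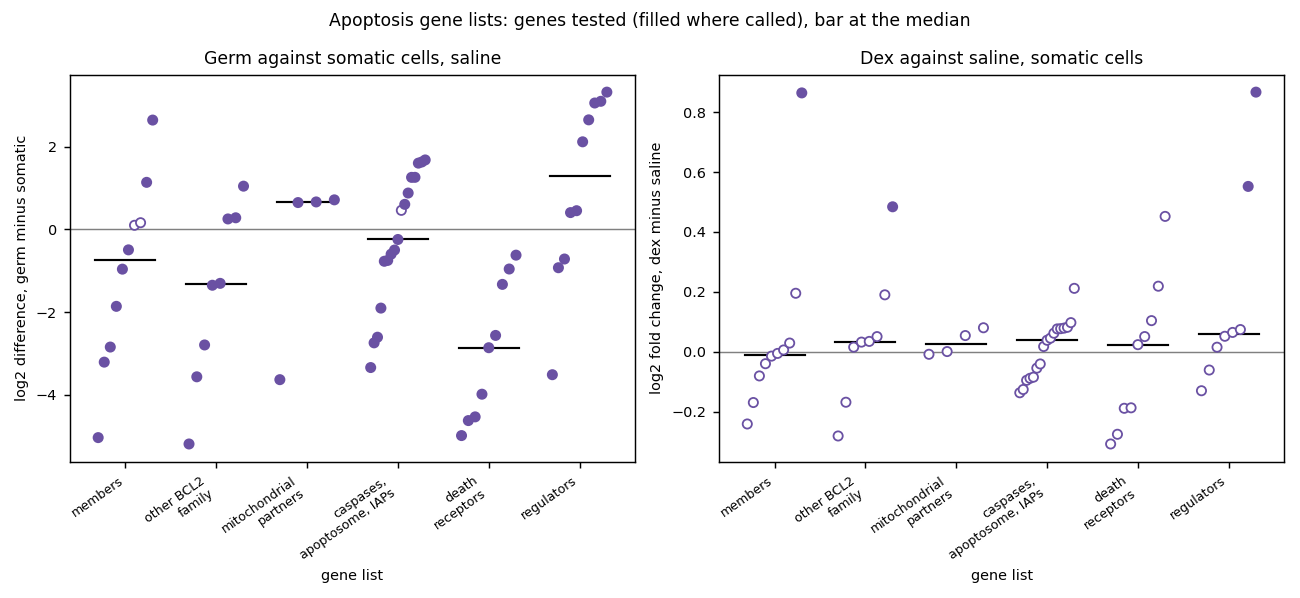
Log2 difference of each gene tested in the members and in the other apoptosis lists, germ minus somatic in saline (left) and dex minus saline in somatic cells (right), filled where the edgeR adjusted p was at most 0.05, with a bar at each list's median. On the right the filled points are Bcl2 at 0.86, Bnip3 at 0.48, Foxo3 at 0.55 and E2f1 at 0.87.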

How the data were processed

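Poly(A) RNA-seq of 12 libraries (4 groups of 3) was used. Per the labels and the study's methods, the authors aligned paired reads to mm10 with HISAT2 2.0.5, assigned them to genes with featureCounts 1.5.0-p3 and deposited raw counts, together with FPKM values, for which the authors used read counts per gene, gene length and sequencing depth. Neither strand nor multi-mapping settings are stated there. Deposited tables of the authors' own DESeq2 1.20.0 comparisons (log2 fold changes, p-values, and copies of counts and FPKM) were not used.

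Counts were filtered with filterByExpr, scaled by TMM and fitted with edgeR 4.0.16 (glmQLFit, glmQLFTest; R 4.3.3) over all genes, on the groups compared, or on all 12 libraries for the difference of dex effects. A gene was called at a Benjamini-Hochberg adjusted p of at most 0.05. CPM used effective library sizes. SE and 95% intervals came from the quasi-likelihood F. FPKM served only to compare levels between genes and was not tested. Floors of 3 counts cover counting error only. The self-test on simulated counts recovered 98% of 2-fold changes in germ cells, 100% in somatic cells and 80% of 2-fold differences between cell types. The simulation changed only genes with ample counts and gave every gene the same spread. These rates thus do not cover genes with few counts, such as Bak1 in germ cells. Replicates with the same number were checked for shared deviations. Not every pair had a correlation above 0.1 in any pair of groups, and the main tests used no pairing. Within each treatment, germ and somatic libraries nevertheless correlated best with their own number, and a replicate block was run as an alternative.

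All 10 members are named in every comparison. Of the other lists, genes called after dex are named, and in saline the 3 called genes furthest above 0 and the 3 furthest below it per list, at a mean of at least 1 CPM. A gene that this rule would name is not reported here. Members and lists were chosen with earlier results of these data known. Alternatives were no low-count filter, RLE scaling, DESeq2 1.42.0, leaving out each library, a replicate block and a fit on all 12 libraries. Promoters were RefSeq windows in GRCm38.p6, and overlaps came from GENCODE annotation of GRCm38.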

Additional observations from a re-analysis of the deposited data

Results flagged for a closer look

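The dex effect on Bcl2 differed between the cell types, by -0.76 on the log2 scale, germ minus somatic (edgeR interaction, adjusted p = 0.0398). The adjusted p ranged from 0.00516 to 0.115 over the alternatives, and the call was lost under 10 of 16 of them, 9 of these by leaving out a single library. Somatic dex and saline libraries did not overlap, while the germ cell libraries of both treatments overlapped.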

How the results depend on the processing

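Of 600 values of the members under an alternative, 560 kept their direction and side of the threshold. The number of members called kept at 0 in germ cells after dex, 1 in somatic cells after dex and 8 between cell types after dex under every alternative, and was 8 or 9 in saline. For the difference of dex effects it was 1 with no low-count filter, RLE scaling and DESeq2, 0 to 1 over the left-out libraries, and 0 with the replicate block (Bcl2 -0.77, adjusted p = 0.0615). Whether same-numbered germ and somatic libraries came from the same pools is not stated, and the block changed no other member's call. It moved the count of all genes from 314 to 222 for the difference of dex effects. In germ against somatic cells within a treatment, each library correlated best with its own number (0.0781 to 0.144), a hint from the data and not the design. Reversals were all among uncalled values near 0: Bid in somatic cells with no filter (-0.0028), and the Bax difference of dex effects with RLE scaling (-0.0042), DESeq2 (-0.0064) and the block (-0.0020). With libraries left out, signs changed for Mcl1 in germ cells (-0.0590 to 0.0047), for Bid (-0.20 to 0.15), Bad (-0.0801 to 0.0383), Bcl2l11 (-0.0614 to 0.0492) and Bax (-0.154 to 0.0153) in somatic cells, for Bax between cell types in saline (-0.0042 to 0.19), for Bax (-0.0863 to 0.0786), Bid (-0.293 to 0.0515), Pmaip1 (-0.0818 to 0.0554) and Bcl2l1 (-0.14 to 0.00088) in the difference of dex effects, and for other genes in germ cells: Bnip3 (-0.143 to 0.0331), E2f1 (-0.0024 to 0.15) and Nr3c1 (-0.0540 to 0.0125). Genes called over the whole table went from 35 to 420 with no filter, 158 with DESeq2 and 64 with all libraries in germ cells, from 1354 to 803 with all libraries in somatic cells, and from 314 to 727 with no filter and 620 with DESeq2 for the difference. With libraries left out they were 17 to 81, 754 to 1881 and 143 to 384. The causes were not tested. The fewest counts lay behind Bak1 (6 to 29 per library) and Bbc3 (36 to 67) in germ cells, and the effect of depth was not tested.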

Other observations

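Outside the 10 members, the death receptor genes were lower in germ than in somatic cells in saline, 9 of 9 tested, with a median log2 difference of -2.86 against 0.00 for all genes and 42.9% of all genes called lower. Cflar, which encodes the caspase 8 inhibitor c-FLIP, was at 2.61 CPM in germ and 83.8 CPM in somatic cells (-4.99), and Tnfrsf1a, the TNF receptor gene, at 4.57 and 113 CPM (-4.63). Fas was at 0.258, 0 and 0 CPM in germ cells, where 3 counts were 0.171 to 0.194 CPM. In somatic cells it was at 2.20, 2.06 and 1.88 CPM. Ripk3 was at 2.00, 0.583 and 0.514 CPM in germ cells and 16.29, 17.15 and 15.1 CPM in somatic cells in saline. In saline, Fas and Ripk3 passed the count filter only through the somatic libraries. Their directions were thus set in advance within the 9 and the median of the 9. The others of the 9 passed it through the germ cell libraries as well. The part of somatic RNA in these germ cell levels was not tested. Of the caspase, apoptosome and inhibitor genes, 7 of 17 were higher and 9 lower: Diablo (1.68), Birc6 (1.63) and Aifm1 (1.60) were among the higher genes, and Casp8 (-3.34) and Birc3 (-2.74) among the lower.

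In this comparison 86.1% of all genes were called, 43.1% higher and 42.9% lower in germ cells. Of 8 further BCL2 relatives tested in saline, 3 were higher in germ cells (Bnip3 1.05, Bnip3l 0.28, Bcl2l13 0.25) and 5 lower, with the largest differences for Bok (-5.19), Bcl2l2 (-3.57) and Bmf (-2.80). The call of Bcl2l13 was lost without somatic saline 2 or 3 (edgeR adjusted p = 0.0634 and 0.0575). Bok, an effector-like relative, was at 0.323 to 0.933 CPM in germ cells and 23.9 to 28.4 CPM in somatic cells, so it was low in germ cells as Bak1 was. Among the mitochondrial partners, Vdac3 (0.72), Vdac2 (0.67) and Mtch2 (0.65) were higher in germ cells and Vdac1 was lower (-3.64). Of 10 regulators, 7 were higher, led by Fbxw7 (3.32), Trp73 (3.10) and Usp9x (3.06), and 3 lower: Trp53 (-3.52), Ywhaz (-0.93) and Ddit3 (-0.72). Trp63 and Trp73, both among the higher, passed the count filter only through the germ cell libraries. Bok and Bik, among the lower BCL2 relatives, passed it only through the somatic libraries. The directions of these genes were thus set in advance.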
